A study of Homo sapiens with 3 samples.

Results

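Accessible chromatin was examined at 8 genes of the neurotrophin and GDNF families in human neurons. NTF3 and GDNF encode ligands, and NTRK2, NTRK3, NGFR, GFRA1, GFRA2 and GFRA3 encode receptors. A region was assigned to a gene when a summit of it lay inside the RefSeq gene body or within 50 kb of its outer ends. This gave 61 of the 65234 distinct regions in the deposited list, which carry 119 of its 145092 summit entries. Of the 61 regions, 7 belonged to the ligand genes and 54 to the receptor genes.

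The cells were KOLF2.1J, a widely used human pluripotent line reprogrammed from somatic cells, turned into neurons with the neurogenic factor NGN2. They were profiled by ATAC-seq at day 14 of differentiation. In ATAC-seq a transposase inserts adapters into open DNA, so open regions collect more sequenced tags than the DNA around them. All 3 biological replicates come from this line and are 1 group with no control, and the authors combined them into 1 list. The list has no value per replicate. No standard deviation and no test between samples could be given, and the comparisons are between genes and regions of this list.

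Neurotrophins are secreted proteins that support the survival, growth and synaptic function of neurons. They signal through the Trk receptor tyrosine kinases: NTRK2 encodes TrkB, the receptor of BDNF and NT-4, and NTRK3 encodes TrkC, the receptor of NT-3, which is the product of NTF3. NGFR encodes p75, a receptor without kinase activity that binds all mature and precursor neurotrophins. GDNF, a survival factor for dopaminergic, motor and enteric neurons, binds the membrane-anchored co-receptor GFRA1 and signals through the kinase RET. GFRA2 and GFRA3 are the preferred co-receptors of neurturin and artemin.

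The bases just before the annotated starts are shown for 6 genes, because accessible starts were called by the distance of summits from those starts. The bases themselves did not enter the calls. NTF3, GDNF, NTRK2, NTRK3 and GFRA1 have a region at the start shown, and GFRA3 is the gene with none. Each line gives the 250 bases before a RefSeq start (GRCh38.p14), 5′ to 3′ on the strand of the gene, and capitals mark matches to the E-box word CANNTG, to which bHLH factors such as NGN2 bind. RefSeq promoter entries matched 6 of the 8 genes. NGFR and GFRA2 had no entry.
NTF3, chr12:5431858-5432107, plus strand: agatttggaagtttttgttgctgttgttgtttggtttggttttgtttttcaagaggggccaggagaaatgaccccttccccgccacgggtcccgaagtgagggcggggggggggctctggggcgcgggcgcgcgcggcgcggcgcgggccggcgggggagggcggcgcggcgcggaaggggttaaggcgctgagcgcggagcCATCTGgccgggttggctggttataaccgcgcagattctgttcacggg
GDNF, chr5:37840042-37840291, minus strand: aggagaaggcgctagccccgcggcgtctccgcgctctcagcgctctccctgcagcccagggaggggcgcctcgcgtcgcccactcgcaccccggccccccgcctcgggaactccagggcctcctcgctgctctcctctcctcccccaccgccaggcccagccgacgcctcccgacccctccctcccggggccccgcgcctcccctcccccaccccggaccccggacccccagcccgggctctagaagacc
NTRK2, chr9:84669783-84670032, plus strand: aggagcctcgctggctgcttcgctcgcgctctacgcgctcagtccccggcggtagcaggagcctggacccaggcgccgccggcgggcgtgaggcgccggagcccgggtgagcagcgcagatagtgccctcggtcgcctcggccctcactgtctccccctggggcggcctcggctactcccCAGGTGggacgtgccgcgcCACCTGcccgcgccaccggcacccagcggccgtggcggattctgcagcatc
NTRK3, chr15:88256740-88256989, minus strand: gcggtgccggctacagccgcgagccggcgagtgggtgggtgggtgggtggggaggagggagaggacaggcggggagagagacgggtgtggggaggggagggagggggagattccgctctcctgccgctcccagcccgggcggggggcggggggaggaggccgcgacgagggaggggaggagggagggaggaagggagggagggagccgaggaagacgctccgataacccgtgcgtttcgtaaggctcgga
GFRA1, chr10:116274706-116274955, minus strand: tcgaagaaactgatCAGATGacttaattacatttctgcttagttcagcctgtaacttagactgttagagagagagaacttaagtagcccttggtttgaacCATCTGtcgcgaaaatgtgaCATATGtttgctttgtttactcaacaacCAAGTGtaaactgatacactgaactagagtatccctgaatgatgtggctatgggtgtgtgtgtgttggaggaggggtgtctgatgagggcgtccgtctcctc
GFRA3, chr5:138274622-138274871, minus strand: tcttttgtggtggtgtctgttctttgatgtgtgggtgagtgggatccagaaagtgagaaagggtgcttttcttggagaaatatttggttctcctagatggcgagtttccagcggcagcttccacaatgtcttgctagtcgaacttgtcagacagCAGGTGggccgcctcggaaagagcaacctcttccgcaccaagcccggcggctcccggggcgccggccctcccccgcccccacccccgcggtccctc

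The start windows differed in composition. In the windows shown, GC content was 78.0% for GDNF, 75.2% for NTRK2, 73.2% for NTRK3, 66.4% for NTF3, 59.2% for GFRA3 and 43.2% for GFRA1, against a median of 58.0% over 34943 RefSeq start windows of the same length. It also differed between the starts of 1 gene. The other windows of NTRK2 had 50.0%, 64.8% and 48.4%, those of GFRA1 43.2%, 66.8% and 64.4%, those of GDNF 68.8%, 40% and 57.6%, and that of NTF3 55.2%, so the order of the genes depends on the start taken. CANNTG, which reads the same on both strands, occurred 4 times in the GFRA1 window shown, 2 times in that of NTRK2, once in that of NTF3 and once in that of GFRA3, and was not found in those of GDNF and NTRK3. In the other GFRA1 windows it occurred once each, and in those of GDNF also once each. Of the other NTRK2 windows, 1 held it, and that of NTF3 did not. Over all 16 listed start windows of the 6 genes, 11 held CANNTG, a word found in 61.8% of all windows. CAGATG, a word contained in CANNTG and searched on both strands, occurred in 3 of the 16 windows, against 12.2% of all. GGGCGG, a GC box word, occurred in 8 of the 16, against 42.5% of all. The AP-1 word TGACTCA was in none of the 16, against 4.22% of all windows. The cAMP response word TGACGTC was also in none (3.10% of all), as was the octamer-like word ATGCAAA (3.95% of all). The word CCACCAG, part of the CTCF motif, was in 1 window (5.26% of all). Several windows belong to the same gene and 1 pair of GFRA1 windows adjoins, so the 16 are not independent. The matches are a description of these letters.

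An annotated start was accessible, with a summit within 1 kb of it, in 7 of the 8 genes. The same measure held for 69.8% of 20033 protein-coding genes, so a count of 7 of 8 is close to the background. For NGFR and GFRA2, which have no listed start, either outer end was accepted, a measure met by 59.9% of genes without a listed start. Of the 6 genes with a listed start, 5 were accessible, against 72.4% of such genes. With the outer bound of the gene body on the start side in place of the listed starts, 4 of these 6 were accessible, against 68.8% of such genes. NTF3 was lost because its bound, at 5430332, had no summit within 1 kb, whereas its listed start at 5432108 had. GFRA3 was the exception: its single start on chromosome 5 had its nearest summit 8719 bp upstream, and no region had a summit inside the gene.

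NTF3, the gene for NT-3, lies on chromosome 12 from 5430332 to 5495299 and had 3 regions, all inside it. The region at its listed start, from 5431961 to 5433926, was 1966 bp wide and held 7 summits. The strongest summit lay 17 bp before the start, with a fold enrichment (tags at the summit over the local background) of 3.58 and 200 tags (exact Poisson 95% interval 173 to 230). The other 6 summits of the region had between 106 and 131 tags. A second RefSeq start, 63.8 kb from the lower-coordinate end of the gene, had no summit within 1 kb, and the nearest lay 13669 bp before it. The other regions lay 12.3 kb and 50.1 kb into the gene, with fold enrichments of 3.61 (124 tags) and 4.85 (209 tags, interval 182 to 239). The intervals of the start region and of the region at 50.1 kb overlap.

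GDNF lies on chromosome 5 from 37812677 to 37840041 on the minus strand and had 4 regions. The region across its outermost start, from 37839423 to 37840860, covered all 250 bases shown for GDNF. Its strongest summit was upstream, at -379 bp from the start, with a fold enrichment of 3.70 and 381 tags (interval 344 to 421). GDNF-AS1, an antisense transcript, overlaps this summit, so the region cannot be assigned to either gene. A second region, from 37836866 to 37837768, had its summit 2.48 kb inside the gene with a fold enrichment of 3.51 and 408 tags (interval 369 to 450), and did not differ from the start region beyond counting error. This second region lay between the outermost start and 3 further listed starts, none of which had a summit within 1 kb. The nearest of these, at 37835827, was 1142 bp from a summit. The other regions were a summit 22.9 kb into the gene, with a fold enrichment of 5.03 (196 tags), and one 8.06 kb upstream, inside GDNF-AS1, with 3.99 (140 tags).

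NTRK2 carried 23 of the 61 regions, more than any of the other 7 genes. The gene spans 358.5 kb of chromosome 9 (84668522 to 85027054), and 20 of its regions had their strongest summit inside it. Among 397 protein-coding genes within 20% of its length the median was 11 regions, and 97.5% of them had fewer than NTRK2. Per 100 kb of window it had 5.02 regions, which stood at percentile 78.4 of all protein-coding genes.

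A pair of regions lay within 1 kb of NTRK2 starts. The outer one, which covers no listed start, from 84667841 to 84669110, had its strongest summit 103 bp upstream of the outer end of the gene, with a fold enrichment of 9.45 and 1075 tags (interval 1012 to 1141), the highest tag count of the 61 regions. The other, from 84669281 to 84670832, contained the NTRK2 window printed above. It held 5 summits, and its strongest reached a fold enrichment of 3.14 and 361 tags (interval 325 to 400), so the intervals of the pair do not overlap. A further listed start, 33.1 kb into the gene, had no summit within 1 kb.

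The remaining NTRK2 regions were concentrated in the part of the gene away from its start. After the start regions came a stretch of 67.0 kb without a region. Up to the midpoint of the gene there were 6 regions, the inner start region among them, with a median fold enrichment of 4.53, and beyond it there were 14, with a median of 7.06. The strongest by fold enrichment, 14.2 with 932 tags (interval 873 to 994), spanned 84936746 to 84937823, 269 kb from the start. Others stood at 178 kb (fold enrichment 10.7, 855 tags), 249 kb (10.4, 501 tags) and 286 kb (10.1, 352 tags). Which of these fall in exons was not analysed here. Fold enrichment above 10 was reached by 4 of the 23 NTRK2 regions and by 6 of all 61, against 15.7% of all regions in the list.

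NTRK3, on chromosome 15 from 87859751 to 88256739 on the minus strand, is of similar length (397.0 kb) and had 12 regions, 8 of them with their strongest summit inside the gene. The median of 357 genes of like length was 11, and its 2.41 regions per 100 kb stood at percentile 34.5. The region across the start, from 88255458 to 88256865, had 3 summits with 311, 312 and 256 tags, and the last lay 13 bp inside the gene. Its strongest summit by p-value had a fold enrichment of 3.77. NTRK3-AS1 overlaps this region, and which of both genes it belongs to cannot be told apart. A weaker region 1.74 kb upstream reached a fold enrichment of 2.70.

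The NTRK3 regions with higher fold enrichment lay away from the start. The highest value, 10.3 with 417 tags (interval 378 to 459), was at 87874943 to 87875998, 381 kb from the start and near the other end of the gene. It was followed by 8.35 (303 tags) upstream, at -17.98 kb, and 7.79 (264 tags) at 291 kb inside. A stretch of 141.8 kb inside NTRK3, 35.7% of the gene, had no region.

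**Figure D1:**
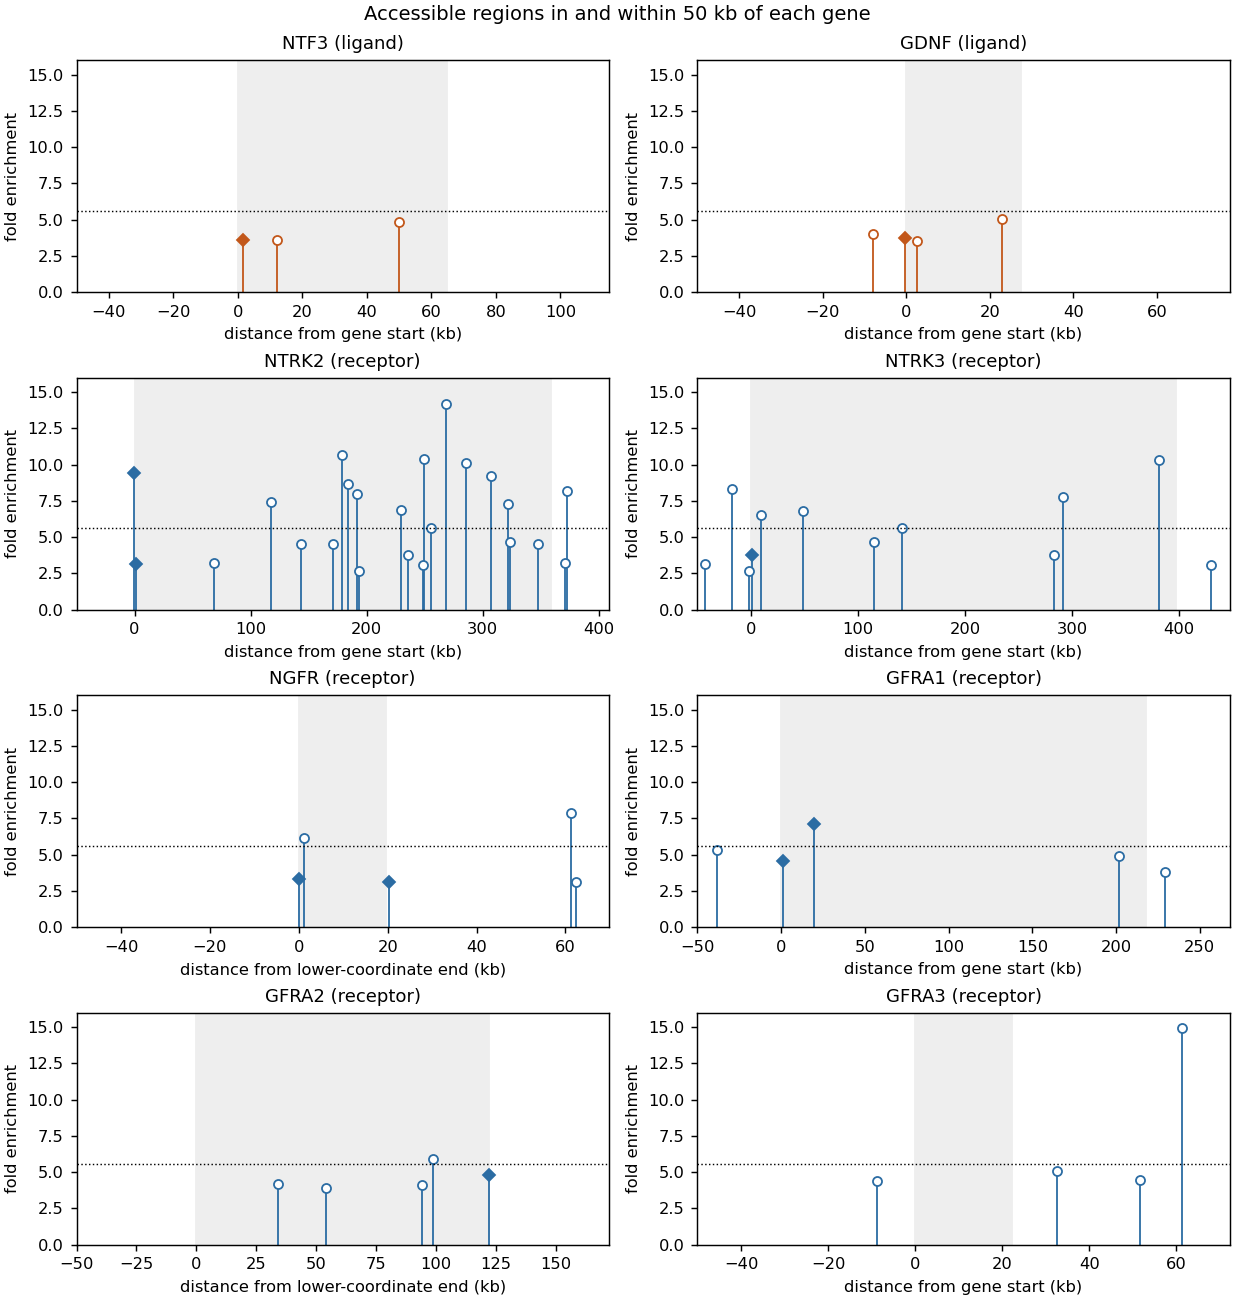
Fold enrichment of the strongest summit of each region (vertical axis, linear ratio) against its distance from the gene start, or from the lower-coordinate end for NGFR and GFRA2 (horizontal axis, kb). Grey shading is the gene body, filled diamonds are regions within 1 kb of a listed start or, without one, of an outer end, open circles are the others, and the dotted line is the median of all regions, 5.60; none of the 7 ligand regions reaches it, and 13 of the 23 NTRK2 regions lie above it.

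NGFR, the gene of p75, spans 19.7 kb of chromosome 17 (49495293 to 49515008) and had 5 regions. At its lower-coordinate end a region of 725 bp had its summit 38 bp inside the gene, with a fold enrichment of 3.31 and 210 tags (interval 183 to 240). Beside it, from 49495922 to 49497917, lay a region 1996 bp wide with 6 summits, whose strongest reached 6.16 and 392 tags (interval 354 to 433). The stronger summit was thus 1.28 kb inside the gene, and the intervals of the pair do not overlap. At the upper-coordinate end, which NGFR-AS1 overlaps, a region had a fold enrichment of 3.09 and 122 tags. The highest NGFR value was 7.85 with 405 tags, at 49556089 to 49556818, inside NGFR-AS1 and 41.5 kb beyond the end of NGFR.

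GFRA1, the GDNF co-receptor, had the widest region of the set. It spanned 2808 bp of chromosome 10 (116272034 to 116274841), held 9 summits and covered 3 of the 4 listed starts. Its summits had between 183 and 494 tags, and the strongest, with a fold enrichment of 4.54 and 494 tags (interval 451 to 540), lay 1.14 kb inside the gene. Among all 65234 regions it stood at percentile 99.9 by width and at percentile 33.4 by fold enrichment. The fourth listed start, 18.9 kb into the gene, had a separate region with its summit 835 bp past that start, a fold enrichment of 7.12 and 342 tags (interval 307 to 380). Next came a region upstream, at -38.05 kb from the start, with a fold enrichment of 5.34 (168 tags), and one 202 kb into the gene with 4.92 (197 tags). The rest of GFRA1 was sparse: 181.8 kb, or 83.5% of the gene, had no region, and the 1.57 regions per 100 kb were the lowest density of the 8 genes (percentile 17.7).

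GFRA2, on chromosome 8 from 21690398 to 21812345, had 5 regions. The region at its upper-coordinate end had its summit 36 bp outside the gene, with a fold enrichment of 4.81 and 181 tags (interval 156 to 209). The strongest, from 21788259 to 21789320 inside the gene, reached 5.89 and 560 tags (interval 515 to 608), and the intervals of these regions do not overlap. The other 3 had fold enrichments of 3.93 to 4.21.

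GFRA3, on chromosome 5 from 138252380 to 138274621 on the minus strand, had 4 regions, all outside the gene. One lay upstream, at -8.72 kb from the start, with a fold enrichment of 4.37 and 131 tags (interval 110 to 155). Those at 32.7 kb and 51.6 kb from the start on the downstream side had 5.11 (190 tags) and 4.47 (134 tags). The fourth, with 14.98 and 1007 tags (interval 946 to 1071), had the highest fold enrichment of the 61 regions, but it lay within 1 kb of an end of CDC23, a cell cycle gene, 61.2 kb from the GFRA3 start.

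Ligand and receptor genes were compared as the choice of genes asks. NTF3 and GDNF had 3 and 4 regions, and the receptor genes had 4 to 23, with medians of 3.5 and 5. The groups overlap, since GFRA3 also had 4. All protein-coding genes had a median of 5, with quartiles at 3 and 7. Windows differ in length, and per 100 kb of window NTF3 had 1.82 regions and GDNF 3.14, within the receptor range of 1.57 to 5.02. Pooled, the density was 2.39 per 100 kb for ligands and 3.11 for receptors, a difference of -0.71. The direction turned with narrower windows, to 0.65 with flanks of 20 kb and 3.16 for gene bodies alone. Without NTRK2 the receptor density was 2.42 and the difference -0.030. The median over all protein-coding genes was 3.12. These differences have no replicate error, and with 2 ligand genes no test was made.

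**Figure D2:**
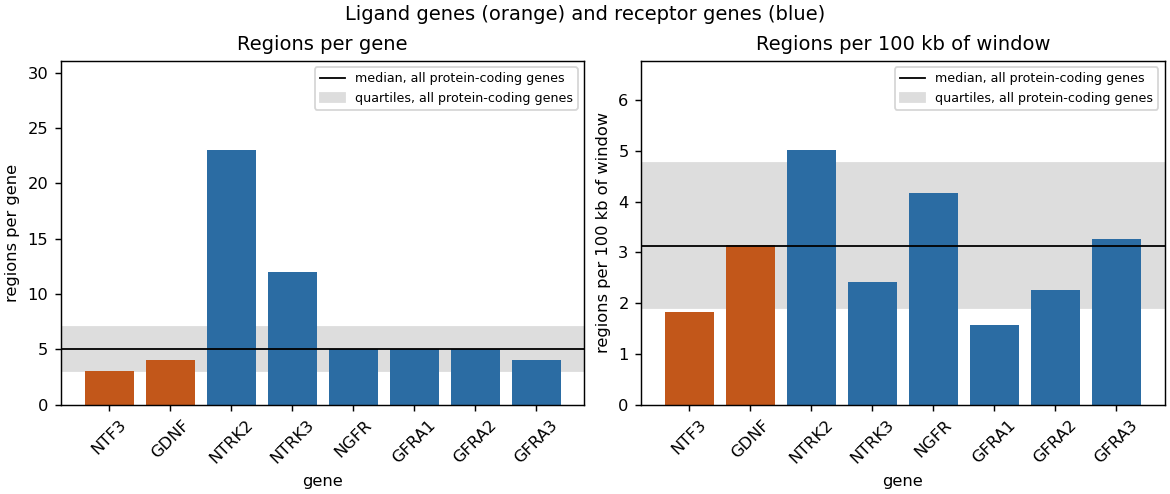
Number of regions per gene (left) and per 100 kb of the gene with its 50 kb flanks (right) for the 2 ligand genes (orange) and 6 receptor genes (blue). The line and grey band are the median and quartiles of all protein-coding genes; NTRK2 and NTRK3 lie above the band on the left, whereas on the right NTRK2 alone lies above it and NTF3 and GFRA1 lie below.

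Median fold enrichment was lower for the ligand regions than for the receptor regions. Ligand regions ranged from 3.51 to 5.03 with a median of 3.70, and receptor regions from 2.67 to 14.98 with a median of 4.87, which puts the ligand median lower by a log2 value of -0.40. The ligand range lies inside the receptor range, whose highest value is the region within 1 kb of an end of CDC23. None of the 7 ligand regions and 24 of the 54 receptor regions exceeded the median of the whole list, against 50.0% of all regions by construction. NTRK2 held 13 of the 24. Without NTRK2 the receptor median was 4.70. In recovered tag counts the medians were 200 for ligand and 228 for receptor regions (log2 difference -0.19). The highest score, 1000, was given to 45 of the 61 regions (73.8%), against 73.7% of the list.

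Start regions of these genes had low fold enrichment beside other start regions. The 10 regions at listed starts or accepted ends had a median fold enrichment of 3.74, from 3.09 at the upper end of NGFR to 9.45 at NTRK2, whereas 14000 regions at starts of protein-coding genes had a median of 9.63 with quartiles at 6.15 and 12.9. None of the 10 was above that median, and 8 were below the lower quartile. NGFR, without a listed start, entered with both of its outer ends, which cannot both be its start side. By recovered tag count 1 of the 10, at NTRK2, was above the median of 834 for start regions. Width did not follow: 5 of the 10 were wider than the median start region of 1296 bp, and those of NTF3 and GFRA1 stood at percentiles 92.6 and 99.7 of start regions. Regions with 6 or more summits made up 2.16% of the list and 7.42% of start regions, and there were 3 among the 61, at NTF3, NGFR and GFRA1. The local background recovered at the 10 start regions had a median of 72.2 tags, against 83.9 tags at start regions of all protein-coding genes, and at the other 51 regions it was 39.3 tags. The part of background level in these fold enrichments was not tested.

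**Figure D3:**
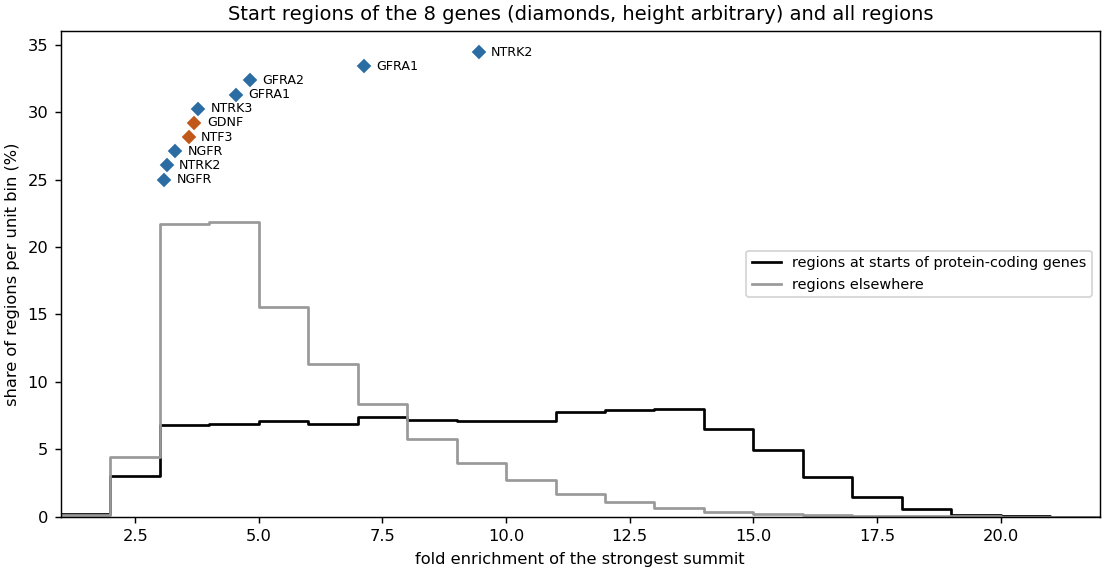
Share of regions in each unit bin of fold enrichment (vertical axis, %) for regions at starts of protein-coding genes (black) and elsewhere (grey). Diamonds place the 10 start regions of the 8 genes on the horizontal axis, both outer ends of NGFR included (orange ligands, blue receptors). Their height has no meaning, and all 10 lie below 9.63, the median of the black curve.

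The 51 regions away from starts had a median fold enrichment of 4.92, against 5.11 for the 51234 regions of the list that are at no start of a protein-coding gene. Their median tag count was 197, against 201 in the list, and their median width 829 bp, against 792 bp. These medians were close to those of the list. The 51 were set apart by the starts of their own gene only, so they include the region within 1 kb of an end of CDC23.

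Other genes of the pathway were taken from a list of 39 symbols, of which 38 matched the table (NRADD did not). The list is broader than neurotrophin and GDNF signalling, with cytokine genes such as LIF and cytokine receptor genes such as IL6ST. LIF, GFRAL, SORCS2, NCAM1, GAB1, DOK6 and PTPN11 have no listed start. For these, either outer end was accepted, as for NGFR and GFRA2, so a region counted as at a start may lie at the other end. The share of 69.8% over all protein-coding genes follows the same rule. Of the 7 other ligands, 3 had an accessible start. These were BDNF, with a fold enrichment of 5.84 (985 tags), NRTN, the gene of neurturin, with 6.70 (476 tags), and the cytokine gene LIF with 3.85 (178 tags). NTF4, ARTN, PSPN and CNTF had none. With NTF3 and GDNF, all 5 of these ligand genes that had a start region were below the median of 9.63.

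Of the 11 other receptors and co-receptors, 9 had an accessible start. RET, the kinase shared by the GFRA co-receptors, had a start region with a fold enrichment of 9.37 and 883 tags. SORT1, the gene of the proneurotrophin co-receptor sortilin, reached 13.6 (1632 tags), and the cytokine receptor subunit gene IL6ST reached 15.5 (2321 tags). The p75 partners LINGO1 and RTN4R had 4.66 and 5.66. GFRA4 and GFRAL had none at a start, and GFRAL had no region in its window at all. Of the 20 matched adaptors and effectors, 19 had an accessible start, with a median fold enrichment of 10.1, and SH2B2 was the exception. Medians of the start regions were 5.84 for the other ligands and 7.29 for the other receptors. In these medians and that of the adaptors each gene counts once, by its start region with the highest −log10 p. The median of 9.63 covers every start region of all protein-coding genes, so the measures are not alike. Accessible starts made up 42.9%, 81.8% and 95% of the other ligands, other receptors, and adaptors, against 69.8% of all protein-coding genes. Several adaptor genes, such as GRB2 and SOS1, act downstream of many receptors.

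**Figure D4:**
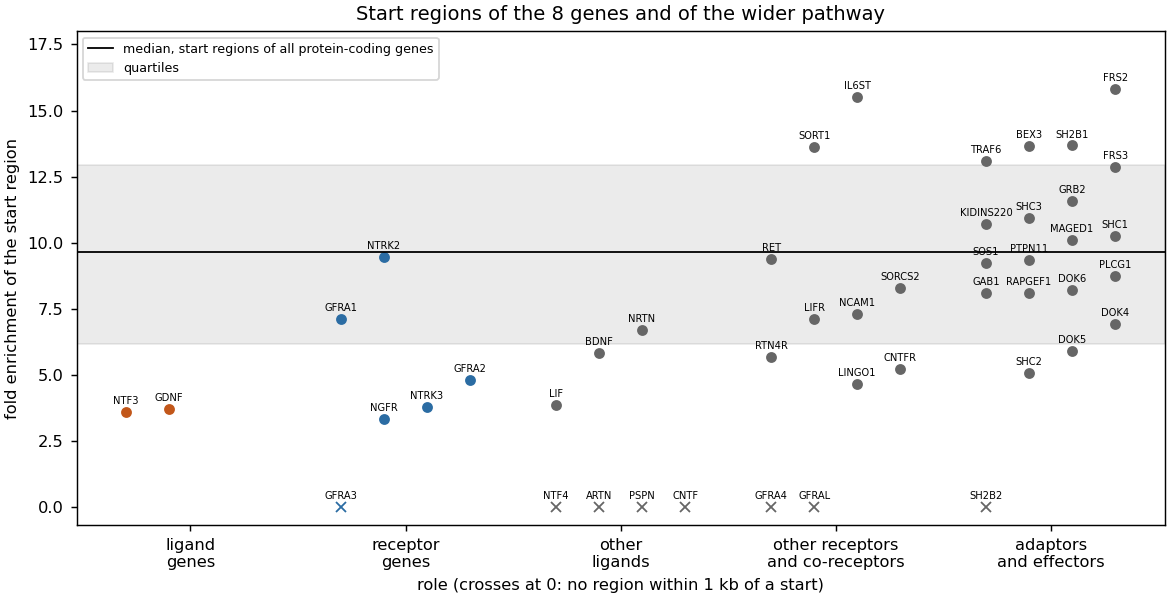
Fold enrichment of the start region with the highest −log10 p for the 2 ligand and 6 receptor genes and for the other pathway genes, by role. The line and band are the median (9.63) and quartiles of start regions of all protein-coding genes. Crosses at 0 are genes without a region within 1 kb of a listed start or, without one, of an outer end. All ligand genes and all but 2 of the receptor and co-receptor genes (SORT1 and IL6ST) lie below the line or at 0. Adaptors lie on both sides of the line.

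The outermost region inside the limit of 50 kb and the next one outside it were compared by fold enrichment, with no test. Each was sought over both sides of the gene together, so the compared regions can lie on opposite sides of it. Some of these regions lay far from the limit. The outermost NGFR region inside it, 42.6 kb from the gene, had a fold enrichment of 3.12, and the next outside, at 53.0 kb, had 5.62. For NTRK2 the outermost region inside, at 13.9 kb, had 8.22, and the next outside, at 50.9 kb, had 3.08. For NTRK3 the outermost region inside, at 42.9 kb, had 3.12, and the next outside, at 95.7 kb, had 3.88. In the same order, the values inside and outside were 3.99 and 6.01 at GDNF and 14.98 and 18.07 at GFRA3. They were 5.34 and 4.70 at GFRA1, and 4.81 and 4.72 at GFRA2. NTF3 had no region in its flanks, and its values were 4.85 inside the gene and 4.08 outside the limit. The region inside the limit was the weaker at GDNF, NTRK3, NGFR and GFRA3, and the stronger at NTF3, NTRK2, GFRA1 and GFRA2.

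The label of the cells was checked on marker genes, by accessible starts. All 9 pan-neuronal markers, all 5 GABAergic, 3 of 4 glutamatergic and all 5 neural progenitor markers had one, as did 2 of 4 peripheral sensory, 3 of 5 astrocyte and oligodendrocyte, 1 of 3 Schwann and neural crest, 1 of 3 pluripotency and 0 of 3 microglial markers. The share over all protein-coding genes was 69.8%, so counts such as 3 of 4 and 3 of 5 are near that background. An accessible start does not show that a gene is transcribed, and the part of other cell types in the 61 regions was not tested. In this list fewer cells with an open region and less opening per cell cannot be told apart.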

How the data were processed

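The input was 1 list of ATAC-seq peaks for 3 replicates, named in the labels as the optimal set by irreproducible discovery rate. The build is hg38, per the submitters' processing notes; the aligner and peak caller are not given in the sources used here. The authors deposited each summit's fold enrichment, a linear ratio. The deposited −log10 p and −log10 q ranged from 5.92 to 2945 and from 4.28 to 2939, and the deposited score from 540 to 1000. Depth per replicate is unknown.

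Entries sharing both bounds were joined into regions, described by the entry with the highest −log10 p. Tag counts and local backgrounds were recovered from fold enrichment and −log10 p, with a Poisson upper tail and a pseudocount of 1. All entries gave a whole number to within 0.00079 units of −log10 p. Tags are PCR products without molecular identifiers, so the exact Poisson intervals (95%) cover counting error only. Gene bounds and starts came from RefSeq tables (GRCh38.p14), and positions count from 1. Genes named were the 8 members, the pathway list and, per member, the region nearest its start and the 3 with the highest fold enrichment; others were added after their values were seen. Some genes of the pathway list are not reported here. A planned search of genes with a like pattern across samples was not possible. Members and lists were chosen with earlier results of these data known, so no list is independent support. Alternatives covered windows, flanks, score, entries and overlap. Python 3.11.15, numpy 2.4.6, pandas 2.3.3 and scipy 1.17.1 were used. On data simulated with the same formulas, 100% of 20000 tag counts were recovered. This checks the inversion only and cannot show that the peak caller used these formulas.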

Additional observations from a re-analysis of the deposited data

How the results depend on the processing

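Of 40 recomputed values for 6 results, 27 kept their direction and stayed within 1.5 times the main value, 11 moved further and 2 reversed. The number of accessible starts among the 8 genes was 7 with 500 bp, 2 kb, a score of at least 830 or any overlap. It was 6 with the outer gene bound on the start side in place of listed starts, where NTF3 was lost. In the wider pathway it ranged from 29 to 33, with 31 in the report. The total of 61 regions became 119 as summit entries, 24 above the median fold enrichment and 38 without NTRK2, which follows from what each setting admits. The difference in pooled density, ligands minus receptors (-0.71 per 100 kb), reversed to 0.65 with flanks of 20 kb and to 3.16 for gene bodies alone. It was -0.056 with every entry, -1.38 above the median fold enrichment and -0.030 without NTRK2. The difference in median regions per gene (-1.5) became -5.5 with flanks of 100 kb, -0.5 for gene bodies and -4.5 with every entry. The log2 difference in fold enrichment stayed negative in every setting run, at -0.62 for gene bodies and -0.19 in tag counts. Why these values moved was not tested. Leaving out NTRK2 and using the outer gene bound as the start were chosen after seeing the data. No paired analysis was possible because there is 1 group and the authors' list pools its replicates, and for that reason no replicate could be left out.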
